A study of Homo sapiens with 4 samples.

Results

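The genes of 10 SWI/SNF subunits were examined for peaks of 3 ChIP-seq libraries from HepG2 cells, an established line from a human liver tumour. Each locus was the gene with 10 kb on either side on hg19, with gene ends taken to the whole kilobase, and a peak belonged to a locus when at least 1 bp of it lay inside. The 10 loci spanned 1612 kb, which is 0.0521% of the genome, and held 48 of 46380 deposited peaks. Of these, 28 were among the 29441 SMRC1 peaks, 8 among the 3296 SATB1 peaks and 12 among the 13643 NFIC peaks. The members were chosen by gene name and position and not by a cutoff on any measured value, though with earlier results of these data known.

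The chromatin of all libraries came from HepG2 cells fixed in 1% formaldehyde for 10 min, and each library was made with 1 antibody, against SMRC1, SATB1 or NFIC. SMRC1 is the database name of SMARCC1 (BAF155). The labels also name an input library, whose signal was not analysed here. The study set its own antibodies against published profiles from commercial ones, which were not used here. With 1 library per antibody there was no replicate, so no difference between antibodies or loci was tested and intervals cover counting error only. HepG2 is a single tumour-derived line, and its chromosome copy number at these loci was not measured here.

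SWI/SNF complexes use the energy of ATP to slide or evict nucleosomes. The canonical BAF and PBAF forms hold 1 ATPase, SMARCA4 (BRG1) or SMARCA2 (BRM), with core subunits drawn from a set that includes SMARCC1, SMARCC2, SMARCB1 and SMARCD1. ARID1A or ARID1B marks the canonical BAF form of the complex, and ARID2 with PBRM1 marks the PBAF form. The target of the SMRC1 antibody is thus itself encoded by one of the loci. SATB1 is a chromatin organiser that prefers AT-rich DNA. NFIC belongs to the nuclear factor I family, whose members bind as dimers to a palindrome made of TTGGC and its reverse complement GCCAA.

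Promoter sequences were taken from a RefSeq table on GRCh38.p14, with 250 bases before and 50 after each listed start, and matched 7 of the 10 genes. SMARCC1, SMARCC2 and ARID2 had no entry. The windows of ARID1A, SMARCA4, SMARCA2 and ARID1B are given. These genes had SMRC1 peaks at all their 5′ ends and an NFIC peak at ARID1B alone among the 4. That NFIC peak was weak, with a −log10 q of 4.22 and rank 11865 of 13643. SMARCB1, SMARCD1 and PBRM1 likewise had SMRC1 peaks and no NFIC peak at their 5′ ends, so the 4 genes were not set apart by this contrast. Capitals mark TTGGC or GCCAA, letters are 5′ to 3′ on the coding strand, and for ARID1B both listed starts are given. The peaks are on hg19, so the windows could not be laid over them base by base.
ARID1A (GRCh38.p14, chr1:26695765-26696064, plus strand): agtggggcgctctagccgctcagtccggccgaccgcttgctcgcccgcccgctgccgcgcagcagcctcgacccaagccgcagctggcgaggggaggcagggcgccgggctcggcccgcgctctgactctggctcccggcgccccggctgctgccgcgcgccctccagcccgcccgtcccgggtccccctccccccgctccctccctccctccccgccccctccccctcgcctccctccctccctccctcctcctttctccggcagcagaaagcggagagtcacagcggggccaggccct
SMARCA4 (GRCh38.p14, chr19:10960780-10961079, plus strand): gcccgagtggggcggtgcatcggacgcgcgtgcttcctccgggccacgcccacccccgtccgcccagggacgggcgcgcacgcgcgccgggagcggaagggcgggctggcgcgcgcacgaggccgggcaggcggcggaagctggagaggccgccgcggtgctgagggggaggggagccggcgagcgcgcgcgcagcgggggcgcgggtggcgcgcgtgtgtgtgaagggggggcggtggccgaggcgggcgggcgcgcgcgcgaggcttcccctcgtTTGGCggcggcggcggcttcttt
SMARCA2 (GRCh38.p14, chr9:2015097-2015396, plus strand): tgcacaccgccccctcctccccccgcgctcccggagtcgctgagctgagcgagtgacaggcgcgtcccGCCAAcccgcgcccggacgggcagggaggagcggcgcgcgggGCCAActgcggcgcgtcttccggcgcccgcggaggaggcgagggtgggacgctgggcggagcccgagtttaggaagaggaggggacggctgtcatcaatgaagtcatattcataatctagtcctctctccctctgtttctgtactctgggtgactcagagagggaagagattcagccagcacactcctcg
ARID1B, outermost start (GRCh38.p14, chr6:156775776-156776075, plus strand): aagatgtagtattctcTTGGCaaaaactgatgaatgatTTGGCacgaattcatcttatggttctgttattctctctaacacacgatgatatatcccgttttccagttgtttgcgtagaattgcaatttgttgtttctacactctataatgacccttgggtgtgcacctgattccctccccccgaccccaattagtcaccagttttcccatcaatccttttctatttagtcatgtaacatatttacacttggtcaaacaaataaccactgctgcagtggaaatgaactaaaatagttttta
ARID1B, inner start (GRCh38.p14, chr6:156777128-156777427, plus strand): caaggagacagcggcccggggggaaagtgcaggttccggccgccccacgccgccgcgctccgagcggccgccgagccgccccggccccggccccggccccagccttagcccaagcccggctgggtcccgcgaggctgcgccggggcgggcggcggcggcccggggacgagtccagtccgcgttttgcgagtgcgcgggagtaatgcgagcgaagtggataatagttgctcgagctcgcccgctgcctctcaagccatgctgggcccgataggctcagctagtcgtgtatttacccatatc

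Most of these windows were rich in G and C. The ARID1A window had 78.0% G+C and 33 CG dinucleotides, and the SMARCA4 window 81.3% and 55, compared with medians of 58.7% and 14 over 35116 windows of that length. The SMARCA2 window had 66.7% G+C and 30 CG. At ARID1B the outermost window was AT-rich, with 37.7% G+C and 5 CG, whereas the inner one had 72.0% and 39. TTGGC or GCCAA occurred in 5 of the 7 outermost windows, against 45.6% of all windows, and the full palindrome, with 5 bases between its arms, in 0 of 7, against 0.0285% of all. The Sp-type motif CCGCCC, on either strand, was found in 6 of 7 windows (45.0% of all) and the AP-1 type motif TGANTCA, on either strand, in 2 of 7 (7.71% of all). Such matches describe letters and not occupied sites.

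SMRC1 peaks lay at the 5′ ends of 9 of the 10 genes, SATB1 peaks at 5 and NFIC peaks at 2, where a peak was counted if any of it fell within 2 kb of the 5′ end. SMARCC2 was the gene without an SMRC1 peak there. As background, 4.03% of all 4 kb tiles of the genome held an SMRC1 peak, 0.452% a SATB1 peak and 1.92% an NFIC peak. These tiles are mostly not gene starts, and other gene starts were not analysed here, so the counts do not set these genes apart from other genes. Peaks of all 3 lists occurred at 2 of the 10 5′ ends, against 0.136% of such tiles. At 5′ ends lay 13 of 28 SMRC1 peaks (46.4%, exact 95% interval 27.5 to 66.1), 6 of 8 SATB1 peaks (75.0%, 34.9 to 96.8) and 2 of 12 NFIC peaks (16.7%, 2.09 to 48.4), and these intervals overlap. At a −log10 q of at least 10, a stricter threshold than the authors', the 5′ ends with a peak numbered 6 for SMRC1, 1 for SATB1 and 0 for NFIC.

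**Figure D1:**
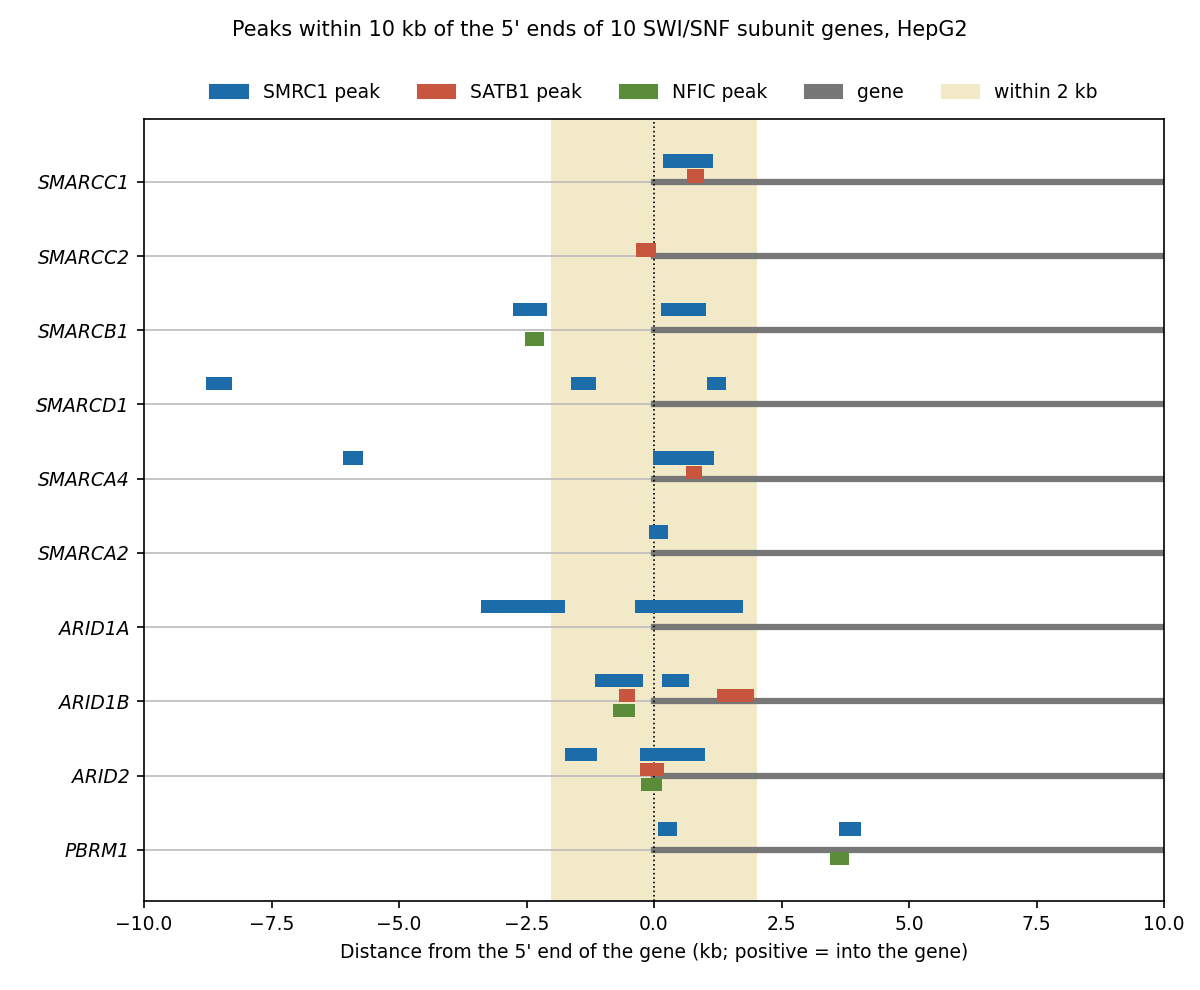
Peaks of the SMRC1, SATB1 and NFIC lists (coloured bars, drawn at their full width) within 10 kb of the 5′ end of each gene, in kb with positive values into the gene, whose start is known to 1 kb. SMRC1 bars fall in the shaded 2 kb zone at every gene except SMARCC2, where a SATB1 bar stands alone, and NFIC bars fall in it at ARID1B and ARID2.

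The gene of the antibody's own target, SMARCC1, carried a single SMRC1 peak in a window of 217 kb. It lay at the 5′ end, at chr3:47822851-47823834, with a fold of 5.69, a −log10 q of 26.2 and 86 reads at its summit, and ranked 3788 of the list. Here the fold is the authors' ratio of summit to local background, and the summit's read number was solved for as described under the processing. A SATB1 peak at chr3:47823033-47823364 had its summit 19 bp from that of SMRC1, with a fold of 3.72 and 39 reads. No NFIC summit lay closer to the SMARCC1 5′ end than 172 kb. The SMRC1 density of the locus, 4.61 peaks per Mb, was below the 24.3 per Mb of the rest of its band, 3p21.31.

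SMARCC2 (BAF170), the paralogue of SMARCC1, had no SMRC1 peak at its 5′ end. A SATB1 peak at chr12:56583967-56584365 covered the whole-kilobase position taken as its 5′ end, and whether it covers the start itself is unknown. This SATB1 peak had a fold of 4.63, a −log10 q of 7.88 and 28 reads. The nearest SMRC1 summit was 32.15 kb from that position. Both SMRC1 peaks of the locus lay beyond the 3′ end. The stronger, at chr12:56551323-56552516, had a fold of 4.26 and 70 reads and overlapped a SATB1 peak of fold 2.53 and 31 reads. The weaker, at chr12:56545786-56546935, had a fold of 3.32. MYL6, which encodes a myosin light chain, is the neighbouring gene on that side, and which gene these peaks serve was not tested.

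SMARCB1 (SNF5) had an SMRC1 peak just inside its 5′ end, at chr22:24129126-24130024, with a fold of 2.82 from 75 reads over a recovered background of 20 control fragments. A sharper SMRC1 peak lay upstream at chr22:24126235-24126906, with a fold of 4.44 from 33 reads over a background of 5. It overlapped an NFIC peak of fold 5.56 and 27 reads whose summit was 38 bp away, and which was the single NFIC peak of the 4 core loci. The neighbouring gene on that side is MMP11, a matrix metalloproteinase. SMARCD1 (BAF60A) had 4 SMRC1 peaks in 37 kb and no peak of the other lists. A pair of them flanked its 5′ end, at -1.39 and 1.15 kb, with folds of 3.13 and 3.53 and 39 and 43 reads. The others lay 8.58 kb upstream (fold 3.73) and beyond the 3′ end (fold 4.31, 51 reads), where GPD1, a glycerol-3-phosphate dehydrogenase gene, is the neighbouring gene. With 108 SMRC1 peaks per Mb against 24.55 in the rest of its band, SMARCD1 was the densest locus of the 10. Among genome tiles of its length, 1.475% held at least as many peaks. Its window was also the shortest of the 10, and the part of window length in this ranking was not tested.

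Of the ATPase genes, SMARCA4 held 2 SMRC1, 1 SATB1 and 2 NFIC peaks and SMARCA2 held 1 SMRC1 peak. SMARCA4 had NFIC peaks in its gene body at chr19:11087336-11088063 and chr19:11108639-11109254, 16.8 and 37.9 kb into the gene. Their folds were 14.9 and 10.6, with 74 and 59 reads over backgrounds of 4 and 4.62 fragments. They ranked 571 and 1159 of 13643, the highest NFIC ranks in the 10 loci, and neither overlapped an SMRC1 or a SATB1 peak. Whether they fall in introns or exons was not determined, since no hg19 annotation was used. The 5′ end of SMARCA4 instead carried an SMRC1 peak at chr19:11070979-11072179, with a fold of 3.80 and 77 reads, and within it a SATB1 peak of fold 2.59 and 38 reads with its summit 33 bp away. A weaker SMRC1 peak, of fold 3.04 and 30 reads, lay 6 kb upstream.

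SMARCA2 was the sparsest locus. Its window held 1 peak, an SMRC1 peak at chr9:2014898-2015268, with a fold of 3.32 and 39 reads. The peak covered the whole-kilobase position taken as the 5′ end, and whether it covers the start itself is unknown. It ranked 19295 of 29441, the lowest of the 10 leading SMRC1 peaks, and it was 371 bp wide. The nearest NFIC summit was 556 kb away and the nearest SATB1 summit 1332 kb, and the window printed above holds TTGGC or GCCAA at 2 places. At SMARCA4 and SMARCA2 the SMRC1 densities, 16.4 and 5.03 peaks per Mb, were below those of the rest of their bands, 24.3 and 6.59.

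The BAF-defining ARID1 genes carried the strongest SMRC1 peaks. At ARID1A, a frequent target of inactivating mutations in human cancers, a peak 2121 bp wide spanned the 5′ end at chr1:27021620-27023740, with a fold of 7.35, a −log10 q of 64.5 and 169 reads. It ranked 527 of the SMRC1 list, in its top 1.79%. A companion 2.40 kb upstream, at chr1:27018607-27020265, had a fold of 7.01 and 107 reads. Neither overlapped a SATB1 or NFIC peak, and the nearest SATB1 summit was 74.8 kb away. A weaker SMRC1 peak of fold 2.70 lay in the gene body. Beyond the 3′ end, next to PIGV, 2 more SMRC1 peaks had folds of 3.64 and 4.20. The SMRC1 peak of fold 3.64, at chr1:27110525-27111016, also carried an NFIC peak of fold 4.63 with its summit 22 bp away. Both lists had 69 reads there over a recovered background of 14 fragments. The folds differ because reads are first divided by a scale, 1.288 for SMRC1 and 1.007 for NFIC.

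ARID1B, the longest gene of the 10 at 433 kb, had 6 SMRC1, 3 SATB1 and 2 NFIC peaks. Its upstream edge held a site of all 3 lists at chr6:157097840-157098789, where the SMRC1 peak had a fold of 7.22 and 95 reads, the SATB1 peak a fold of 3.18 and 28 reads and the NFIC peak a fold of 2.89 and 31 reads. The 3 summits lay within 166 bp. In their lists this NFIC peak ranked 11865 of 13643 and this SATB1 peak 2244 of 3296. A further SMRC1 peak (fold 3.17) and a further SATB1 peak (fold 3.09) followed 0.55 and 1.71 kb into the gene. In the gene body the SMRC1 peaks at chr6:157253948-157254838 and chr6:157342182-157343272 had folds of 6.44 and 3.66 and 90 and 107 reads. The peak with 107 reads overlapped a SATB1 peak of fold 2.51, the strongest of the 3 SATB1 peaks of the locus by −log10 q. SMRC1 peaks of fold 2.49 and 3.73 lay further in, 342 and 400.1 kb from the 5′ end. The leading NFIC peak, at chr6:157112300-157112982, stood apart from both other lists, with a fold of 8.47 and 38 reads over a background of 3.57 fragments.

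The PBAF-defining genes held 5 SMRC1, 1 SATB1 and 6 NFIC peaks, of which 3, 1 and 1 reached a −log10 q of 10. ARID2 was the other gene with all 3 lists at its 5′ end. There the SMRC1 peak at chr12:46122716-46123988 had a fold of 4.34 and 49 reads, and the NFIC peak a fold of 2.68 and 26 reads. That NFIC peak was near the bottom of its list, with a −log10 q of 2.79 and rank 13192 of 13643. The SATB1 peak had a fold of 4.80, a −log10 q of 10.4 and 35 reads, and was the highest-ranked SATB1 peak of the 10 loci, at 425 of 3296. Upstream, at -1.54 kb, an SMRC1 peak of fold 5.41 and 60 reads overlapped no peak of the other lists, and by −log10 q it was the stronger SMRC1 peak of the locus. Further NFIC peaks lay 104 kb into the gene (fold 3.72) and beyond its 3′ end at chr12:46306570-46307070 (fold 7.64, 28 reads), both without SMRC1. The ARID2 band, 12q12, is a dark-staining one, and the locus held 10.1 SMRC1 and 15.1 NFIC peaks per Mb, against 3.25 and 1.625 in the rest of that band.

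PBRM1, which encodes the polybromo subunit, had 3 SMRC1 and 3 NFIC peaks, all of modest strength. The SMRC1 peak at its 5′ end, chr3:52719552-52719923, had a fold of 3.52 and 64 reads, and GNL3, a nucleolar GTPase gene, is the neighbour on that side. The lists met at chr3:52715937-52716366, 3.89 kb into the gene, and beyond the 3′ end at chr3:52570523-52571125. SMRC1 folds at these sites were 3.60 and 2.60, and NFIC folds 3.53 and 2.94, but the summits of the lists were 297 and 304 bp apart. An NFIC peak of fold 2.80 in the gene body had no partner.

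**Figure D2:**
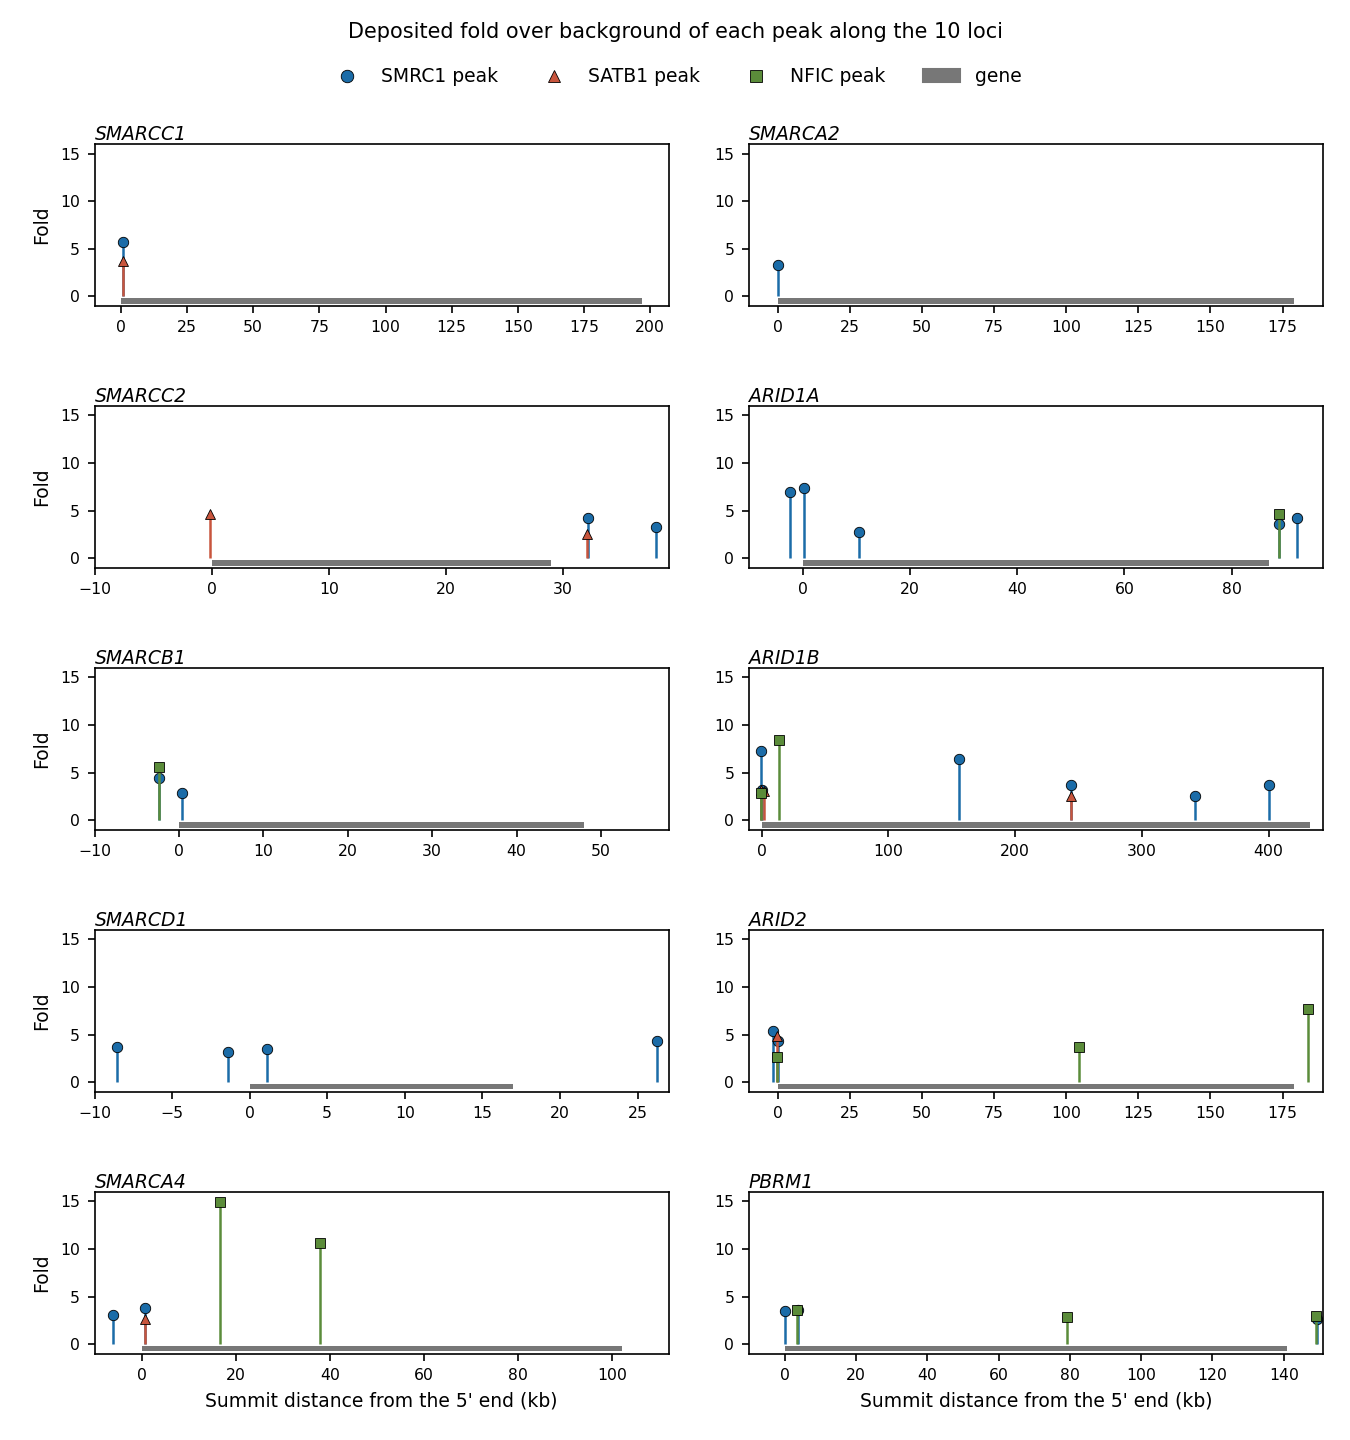
Deposited fold over background (y axis, a ratio) of every locus peak against the distance of its summit from the 5′ end (x axis, kb, a separate scale for each gene), with the gene as a grey bar. The NFIC points of SMARCA4, at 14.9 and 10.6, stand above every other point, while SMRC1 points lie between 2.49 and 7.35.

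Several 5′ ends carried more than 1 SMRC1 summit. In each of the 9 genes 1 SMRC1 summit lay just inside the 5′ end, 0.08 to 1.15 kb into the gene. In 4 of them (SMARCD1, ARID1A, ARID1B and ARID2) another peak counted at the 5′ end had its summit 0.50 to 2.40 kb upstream. SMARCB1 also had an upstream SMRC1 summit, at -2.36 kb, but no part of that peak fell within 2 kb of the 5′ end. The ends are known to 1 kb, so the side of the closest summits is uncertain. Counted over whole loci, 16 of 28 SMRC1 peaks had another SMRC1 summit within 5 kb (57.1%, exact interval 37.2 to 75.5), against 34.5% of the whole list. The distance of 5 kb was chosen after the values were seen. Members of a pair count each other, so the peaks are not independent and the interval may be too narrow. Within 2 kb the count was 5 of 28, against 16.9% of the list, so the contrast was not seen at that distance, and within 10 kb it was 21 of 28, against 50.9%. For SATB1 the share was 2 of 8, against 13.1% of its list, and for NFIC 1 of 12, against 15.8%. SMRC1 peaks at the 5′ ends had a median width of 899 bp, those elsewhere in the loci 672 bp and the remaining peaks of the list 607 bp. Widths at the 5′ ends ran from 368 to 2121 bp, on both sides of these medians. The other lists had the reverse order, with medians of 365.5 bp at 5′ ends and 597.5 bp elsewhere for SATB1, and 422 and 499 bp for NFIC.

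Overlap between lists in the loci did not stand apart from that in the whole lists at these small numbers. Of the 28 SMRC1 peaks, 6 overlapped a SATB1 peak (21.4%, exact interval 8.30 to 41.0), against 8.61% of the list, a share inside the interval. Another 6 overlaps were with NFIC (21.4%), against 23.7%. Of the 8 SATB1 peaks, 6 lay at an SMRC1 peak, against 78.5% of the list, and 2 at an NFIC peak, against 27.4%. Of the 12 NFIC peaks, 6 lay at an SMRC1 peak, against 51.9%, and 2 at a SATB1 peak, against 6.52%. Merged into sites, the 48 peaks made 36 sites, of which 18 were SMRC1 alone, 6 NFIC alone and 2 SATB1 alone. Sites of SMRC1 with SATB1 and of SMRC1 with NFIC numbered 4 each, and the 2 sites of all 3 lists were those at the ARID1B and ARID2 starts. These hold 2 of the 28 SMRC1 peaks, 2 of the 8 SATB1 peaks and 2 of the 12 NFIC peaks, against 3.02%, 25.9% and 6.16% of the lists. At the 10 shared sites the summits spanned a median of 92.5 bp, from 19 bp at SMARCC1 to 349 bp at ARID2.

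The 12 NFIC peaks divided evenly by overlap with SMRC1. The 6 NFIC peaks without SMRC1 had a median fold of 8.05 (range 2.80 to 14.9), and the 6 with SMRC1 a median of 3.23 (2.68 to 5.56), so the ranges overlap. In the whole NFIC list the median fold was 5.60 for the 6569 peaks without SMRC1 and 4.19 for the 7074 with it. Median summit reads were close, 34 against 31, and the recovered background differed, with a median of 4.31 control fragments for those without SMRC1 and 9.5 for those with it. The fold has this background as its denominator, and the background's part in the difference was not tested.

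ARID1A, ARID1B and SMARCA4 held the locus peaks that stood highest in their lists. A −log10 q of at least 10 was reached by 14 of 28 SMRC1 locus peaks, against 43.7% of the list, by 1 of 8 SATB1 peaks, against 13.8%, and by 6 of 12 NFIC peaks, against 46.3%. Median folds were 3.69 in the loci against 4.08 in the rest of the list for SMRC1, 3.13 against 3.54 for SATB1 and 4.18 against 4.87 for NFIC. Taking the best SMRC1 peak of each locus, the order by −log10 q ran from ARID1A (64.5) through ARID1B (35.9), SMARCC1 (26.2), ARID2 (17.7), SMARCC2 (15.8), SMARCA4 (14.7), SMARCD1 (11.6), PBRM1 (10.9) and SMARCB1 (9.13) to SMARCA2 (6.16). With 1 library, neighbours in this order could not be told apart by any replicate spread. ARID1A and ARID1B reached the top 10% of the SMRC1 list, SMARCA4 reached that of the NFIC list, and no locus reached that of the SATB1 list. By definition 10% of the peaks of a list fall there, and a locus with more peaks has more chances to reach it. ARID1A and ARID1B held the most SMRC1 peaks, 5 and 6.

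**Figure D3:**
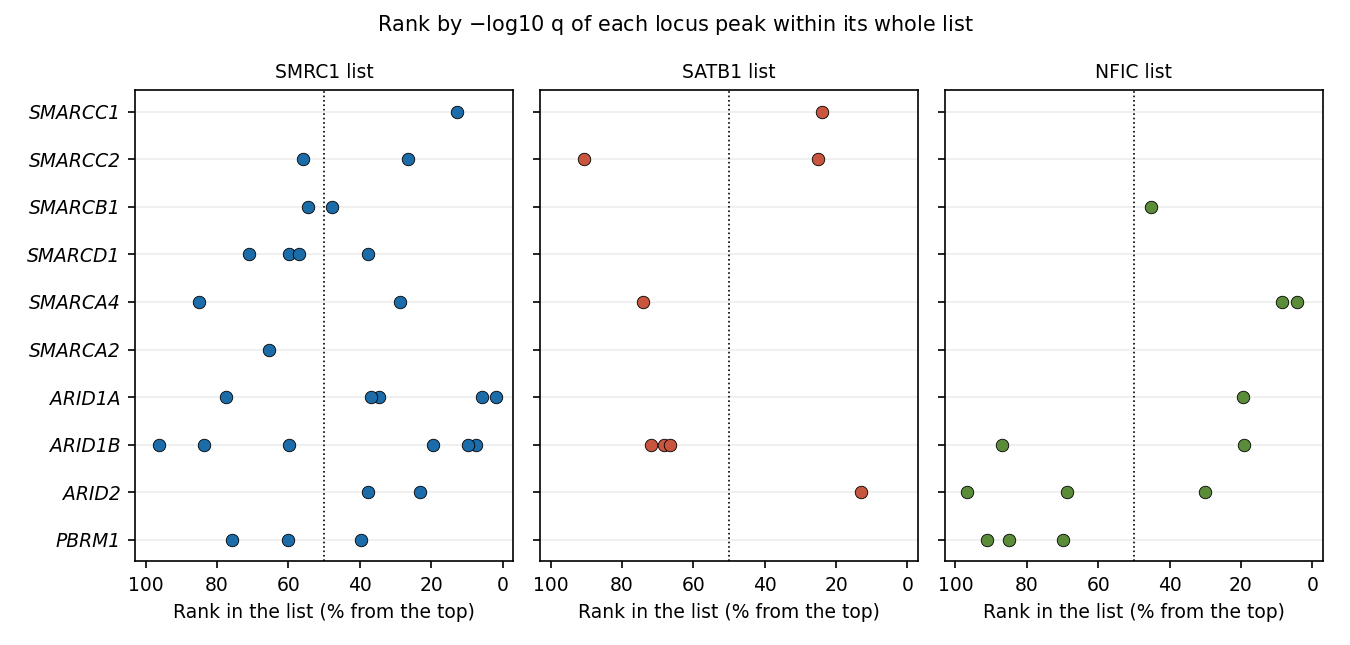
Position of each locus peak in its own list by −log10 q, as the percent of the list from the top (x axis, 0 is the strongest), with a dotted line at the middle of the list and 1 panel per list. ARID1A leads the SMRC1 panel at 1.79% and SMARCA4 the NFIC panel at 4.19%, and SMARCA2 has a single point at 65.5%.

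The loci as a whole held more peaks per Mb than the remaining genome in each list. For NFIC the interval of the ratio included 1, but no test compared the lists. The intervals treat peaks as independent, although 16 of 28 SMRC1 locus peaks had another SMRC1 summit within 5 kb. They may therefore be too narrow. SMRC1 had 17.4 peaks per Mb in the 10 loci (exact Poisson 95% interval 11.5 to 25.1) and 9.51 outside them, a ratio of 1.83. SATB1 had 4.96 (2.14 to 9.78) and 1.06, a ratio of 4.67, and NFIC 7.44 and 4.41, a ratio of 1.69 (interval of the ratio 0.873 to 2.95). Without the flanks the SMRC1 count was 15 and its ratio 1.12, and NFIC had 7 peaks and a ratio of 1.12. With flanks of 20 kb the ratios were 2.15 and 2.13, so the SMRC1 and NFIC ratios rose with the width of the flanks. SATB1 kept 6 peaks and a ratio of 4.0 without flanks, and its ratio was 4.68 with flanks of 20 kb. Set against the rest of its own band, the locus was denser in 6 of 10 cases for SMRC1, 5 for SATB1 and 4 for NFIC. The windows ran from 37 kb at SMARCD1 to 453 kb at ARID1B, all with the same 10 kb flanks. The part of window length in the densities of single loci was not tested. All 10 loci held an SMRC1 peak, 5 a SATB1 peak and 6 an NFIC peak, while 43.3%, 11.4% and 33.0% of genome tiles of the median locus length, 141.5 kb, did. SMARCC1, SMARCC2, SMARCD1 and SMARCA2 had no NFIC peak. The edge of the window mattered at SMARCC2, where an NFIC peak of fold 23.3 that ranked 84 of its list, at chr12:56543964-56544875, ended 10.1 kb from the gene and was not counted.

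**Figure D4:**
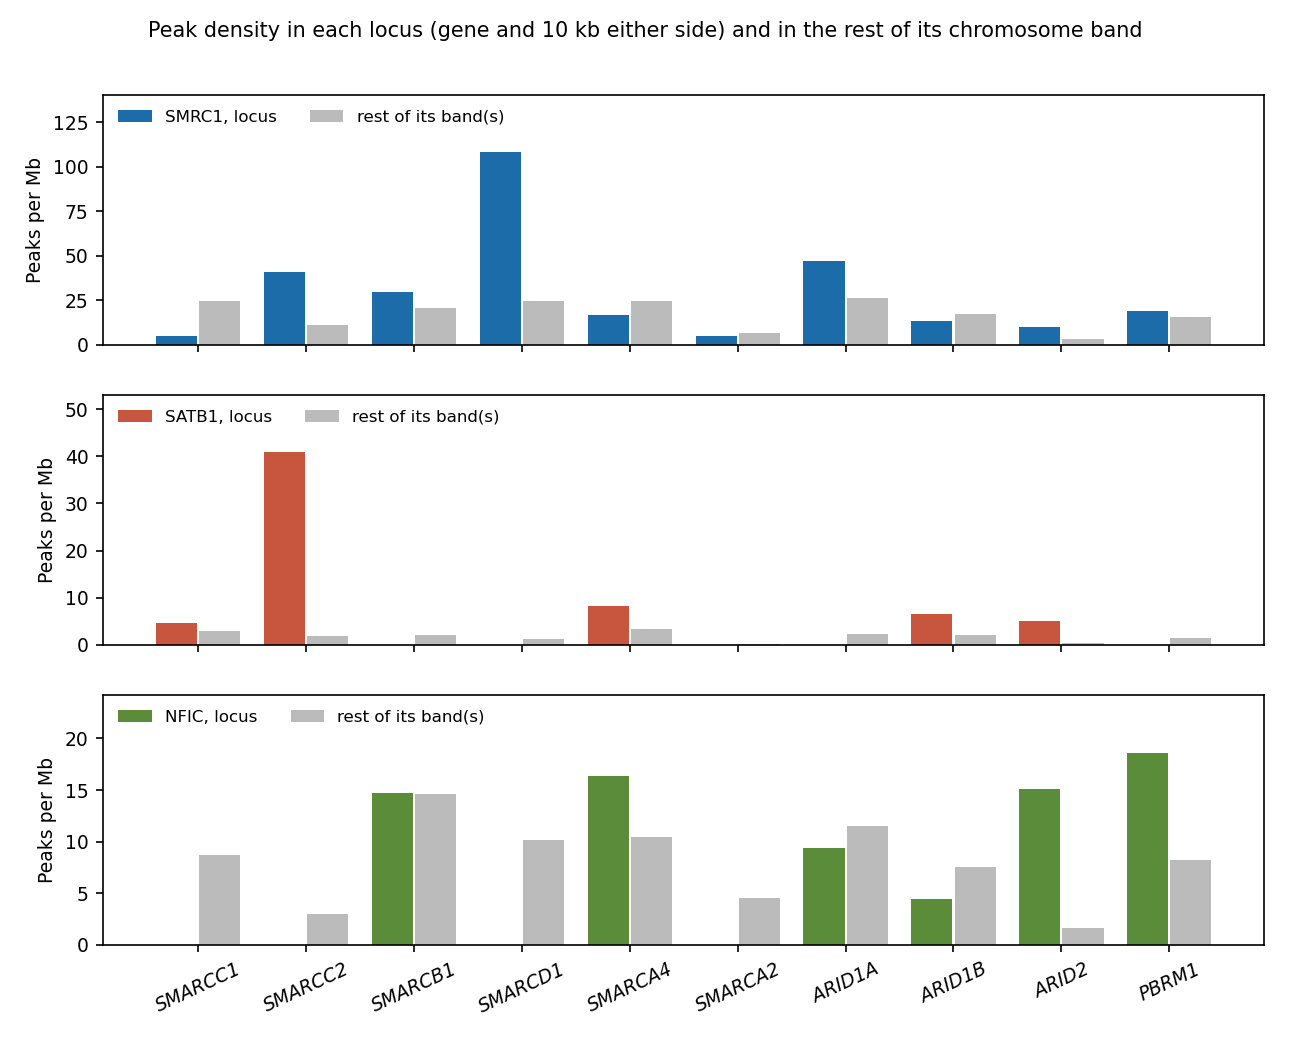
Peaks per Mb in each locus (coloured bars, left) and in the rest of the chromosome band or bands it lies in (grey bars, right), for the SMRC1, SATB1 and NFIC lists from top to bottom. SMARCD1 stands out for SMRC1 with 108 against 24.55, and SMARCC1 lies below its band with 4.61 against 24.3. Their windows differ in length, 37 kb for SMARCD1 and 217 kb for SMARCC1.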

How the data were processed

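The deposited data were 3 peak lists in narrowPeak order without headers, 1 library each. The submitters' processing notes name MACS2 2.1.1, Bowtie 1.1.2, deepTools and SAMtools with the build hg19. Tool settings, and which control was used, are not stated. Each deposited peak carries a fold, which is a ratio of summit to local background, together with −log10 p, −log10 q and a score, a whole number that follows −log10 q and was not used further. Ranks are by −log10 q within a list. Reads at the summit and background were recovered by solving the caller's expressions, fold = (reads / scale + 1) / (background + 1) and the Poisson upper tail, for whole reads. Reads were found for 48 of 48 locus peaks, with scales of 1.288 (SMRC1), 1 (SATB1) and 1.007 (NFIC), at which 98.3%, 100% and 100% of uniquely solved peaks in a sample (1002, 37 and 919 peaks) were whole within 0.05. Background is in control fragments, for SATB1 as scaled by the caller. The absolute depth is unknown.

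Gene positions came in whole kilobases, and strands from the RefSeq promoter table or, for SMARCC1, SMARCC2 and ARID2, from textbook knowledge. The symbols of all 10 genes were found in the GRCh38.p14 gene table, used for the names of neighbours alone. No hg19 annotation or genome was used, so exons, introns, motifs in peaks and other SWI/SNF genes were not analysed here. Peaks were described by a rule that took the strongest peak per locus and list, peaks within 2 kb of a 5′ end and SMRC1 peaks shared with another list (up to 10 by −log10 q); the remaining locus peaks were added so that each locus is complete. The members and lists were chosen with earlier results of these data known. Shares have exact Clopper-Pearson and densities exact Poisson 95% intervals; no test was run. Membership, overlap and read recovery were tested on simulated data. Chromosome lengths came from GenomeInfoDb 1.38.1 and bands from circlize 0.4.16 (R 4.3.3). Scripts ran in Python 3.11.15 with scipy 1.17.1, pandas 2.3.3, numpy 2.4.6 and matplotlib 3.10.9.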

Additional observations from a re-analysis of the deposited data

How the results depend on the processing

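The counts followed the threshold and the flank. At a −log10 q of at least 10, SMRC1 peaks in the loci numbered 14, SATB1 peaks 1 and NFIC peaks 6, SATB1 was found at 1 locus and at 1 5′ end, and NFIC at 0 5′ ends. Without flanks there were 15 SMRC1 peaks, with a density ratio of 1.12, and 7 NFIC peaks. Within 5 kb of the 5′ end, NFIC peaks numbered 4, at 4 loci. With SMRC1 summits within 2 kb, 5 peaks had a neighbour.

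The overlap shares moved with the threshold, and few peaks were left. At a −log10 q of at least 10 in both lists, 1 of 14 SMRC1 locus peaks met SATB1 (7.14%) and 1 of 14 met NFIC (7.14%). Of the SATB1 peaks, 1 of 1 met SMRC1 (100%) and 0 of 1 met NFIC. Of the NFIC peaks, 1 of 6 met SMRC1 (16.7%) and 0 of 6 met SATB1. With equal numbers of peaks per list, 1 of 4 SMRC1 locus peaks met SATB1 and 0 of 4 met NFIC. Of the SATB1 peaks, 1 of 8 met SMRC1 (12.5%) and 0 of 8 met NFIC. Of the NFIC peaks, 0 of 4 met SMRC1 and 0 of 4 met SATB1. The whole-list shares given above are for all deposited peaks. Whether these shares differ from those of the whole lists at the same settings was therefore not tested. The other settings tried, a −log10 q of at least 2, flanks of 5 and 20 kb, 5′ ends within 1 kb, overlap of 50% of the narrower peak, summits within 250 bp and ranking by fold, left the counts within 1.5 times and the shares within their intervals, and the leading peak by fold was that by −log10 q at 8 of 10 loci for SMRC1, 4 of 5 for SATB1 and 6 of 6 for NFIC. With summits within 250 bp, however, 3 of 28 SMRC1 locus peaks met NFIC, against 6 by any overlap. Likewise 3 of 12 NFIC peaks met SMRC1, against 6 by any overlap. No paired analysis was possible because each antibody had 1 library. Summit reads of the locus peaks were 23 to 169 for SMRC1, 28 to 45 for SATB1 and 26 to 74 for NFIC.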

Other observations

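Values that belong to no comparison above concern peaks just outside the loci. Between 10 and 20 kb from a gene, PBRM1 had a site 10.46 kb beyond its 3′ end where an SMRC1 peak of fold 3.82 and a SATB1 peak of fold 4.26 coincided. ARID1A had an NFIC peak of fold 9.19 at a distance of 17.5 kb on its 5′ side, and SMARCC1 had 3 SMRC1 peaks between 11.95 and 19.8 kb from the gene.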
